A study of Mus musculus with 12 samples.

Results

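The genes described here are 6 members of the LIF and STAT3 pathway, the ligand Lif, the receptor subunits Lifr and Il6st, the kinase Jak1, the transcription factor Stat3 and the inhibitor Socs3, in an ATAC-seq study of mouse embryonic stem (ES) cells. ATAC-seq marks accessible chromatin, where a transposase can insert sequencing adapters. The deposited data are a list of 170548 accessible regions, obtained by merging the peaks of the libraries, with the position of each region and no height, read number or value per library. A region belonged to a member when it overlapped the gene body or the 50 kb on either side of it, on GRCm38 (mm10) with GENCODE M21. This gave 136 of the 170548 regions, 25 around Lif, 31 around Lifr, 19 around Il6st, 14 around Jak1, 22 around Stat3 and 25 around Socs3, and no region lay in the windows of more than 1 member.

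LIF is a cytokine that binds LIFR, which pairs with gp130, the product of Il6st. The receptor-bound kinase JAK1 then phosphorylates STAT3, which dimerizes, enters the nucleus and binds palindromic DNA elements. SOCS3 is induced by STAT3 and inhibits the receptor complex, and in mouse ES cells the pathway is known for sustaining self-renewal.

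The 12 libraries fall in 6 groups of 2. In ZHBTc4 cells, a line in which a Tet-Off promoter drives Pou5f1 (encoding OCT4), untreated cells (OCT4 ON) and cells given 1 µg/ml dox (OCT4 OFF) were collected at 24 hr. In 2TS22C cells, where the same kind of promoter drives Sox2, SOX2 ON and SOX2 OFF cells, without and with 1 µg/ml dox, were collected at 26 hr and at 40 hr. All groups shared a serum medium with LIF, the GSK3 inhibitor CHIR99021 and the MEK inhibitor PD184352, so none of these 6 groups lacked the cytokine. Each is a single engineered line, and none of the 12 libraries came from dox-treated cells without such a promoter. Whether peaks of a published dataset of ZHBTc4 cells, grown in serum and LIF, also entered the merge is not given in the sources used here. Because the list pools ON and OFF cells of both lines, it does not tell in which group a region was called, and no ON cells were compared with OFF cells. An accessible region in few cells and a weaker one in all cells cannot be told apart either. Of 8 ES cell marker genes, 7 had a region over an annotated transcription start site (TSS), with Dppa3 as the exception, as did all 8 trophoblast markers, all 6 primitive endoderm markers and 1 of 8 genes of liver, blood, muscle and pancreas, Cd3e. Over all 21938 protein-coding genes the share was 68.9%. A region over a start site therefore did not tell the ES cell, trophoblast and primitive endoderm markers apart. It was less frequent over the 8 genes of liver, blood, muscle and pancreas.

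STAT palindromes, of the form TTCCNGGAA, lay in 5 of the 136 member regions, and these elements are shown first because they are the binding sequence of the pathway's own transcription factor. A palindrome is the same on both strands, so each match was counted once. The stretches run 5′ to 3′ on the strand of the member gene (plus for Lifr, minus for Stat3 and Socs3), were read from the RefSeq GRCm38 sequence, and have the palindrome in capitals. Stretches that touch an annotated exon are cut short. They are Lifr at chr15:7115471-7115571, Stat3 upstream at chr11:100957463-100957491, Socs3 distal at chr11:117923261-117923361, Socs3 near at chr11:117962577-117962677, and Socs3 start at chr11:117969229-117969257.
Lifr: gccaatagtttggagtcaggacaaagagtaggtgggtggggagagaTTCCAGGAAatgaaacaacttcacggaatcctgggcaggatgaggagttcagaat
Stat3 upstream: aggaactgccTTCCGGGAAgccttgtttt
Socs3 distal: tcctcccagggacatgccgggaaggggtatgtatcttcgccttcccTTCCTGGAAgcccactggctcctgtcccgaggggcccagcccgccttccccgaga
Socs3 near: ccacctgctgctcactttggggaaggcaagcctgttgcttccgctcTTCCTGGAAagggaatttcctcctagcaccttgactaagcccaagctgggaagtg
Socs3 start: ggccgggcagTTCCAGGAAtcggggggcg
The window of Socs3 thus held 3 of the 5 elements, and the windows of Lif, Il6st and Jak1 held none inside a region.

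Lif (ENSMUSG00000034394.14), the ligand, lies on the plus strand at chr11:4257557-4272514. Its reference start site, that of the longest principal transcript Lif-202 with 4 exons, was not overlapped by any region. The nearest one, of 689 bp, began 986 bp downstream in intron 1, at chr11:4258543-4259231. The region that did cover starts of Lif, those of Lif-203 and the coding Lif-201, was 955 bp wide at chr11:4266542-4267496 and centered 9.46 kb downstream of the reference start. With GC content of 64.1% and 0.724 of the CpG dinucleotides expected from its base composition, it lay within the range of the widest start regions of the other members, described next. Lif was therefore the only member whose reference start lay outside the list. Of 20092 protein-coding genes with such a reference transcript, 66% had theirs covered, so a reference start outside the list is common. Among the 25 regions of the window, 5 overlapped the gene body and 3 of these were centered in intron 1. The gene body was covered over 21.3% of its length. The nearest distal region upstream, 244 bp wide, was centered 4.44 kb from the reference start, and the farthest downstream, 167 bp wide, 53.6 kb from it. The widest region, of 1099 bp, lay 39.2 kb upstream over the start of Castor1, a neighboring gene. Osm, which encodes another cytokine of the same family, lies in this window and was the nearest protein-coding gene of 6 regions, while 15 of 25 regions had Lif as their nearest protein-coding gene. With non-coding genes counted too, Lif was the nearest gene of 6 of the 25.

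The sequence before the reference start of Lif differed from that of the receptor genes in CpG content, and these 3 stretches are shown for that reason, with CpG dinucleotides in capitals. They are on the plus strand of GRCm38 from RefSeq, end at or just before the reference start and hold no annotated exon, at chr11:4257437-4257556 for Lif, chr15:7129439-7129554 for Lifr and chr13:112463950-112464069 for Il6st.
Lif: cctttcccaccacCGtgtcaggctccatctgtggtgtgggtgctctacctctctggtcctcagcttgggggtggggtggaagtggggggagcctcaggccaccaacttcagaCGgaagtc
Lifr: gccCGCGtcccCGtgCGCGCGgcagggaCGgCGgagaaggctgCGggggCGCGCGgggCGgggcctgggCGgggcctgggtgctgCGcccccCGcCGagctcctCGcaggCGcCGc
Il6st: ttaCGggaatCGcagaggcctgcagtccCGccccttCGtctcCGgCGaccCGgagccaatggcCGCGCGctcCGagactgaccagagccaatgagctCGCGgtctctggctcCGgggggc
The Lif stretch held 2 CpG in 120 bp, the Lifr stretch 20 in 116 bp and the Il6st stretch 14 in 120 bp. Of these 3 stretches, only that of Lif lay outside the accessible regions. It precedes the start of Lif-202, whereas the coding start of Lif-201 lay inside the region with a CpG ratio of 0.724. The sequences before that start and before those of Jak1, Stat3 and Socs3 are not shown. Whether CpG content bears on the missing region was not tested.

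**Figure D1:**
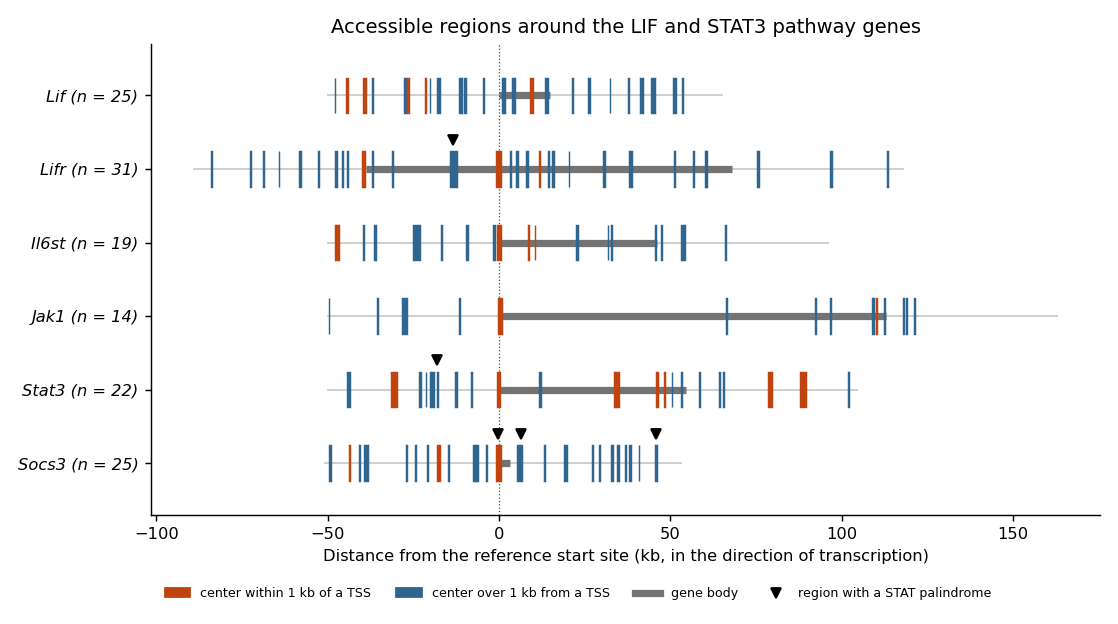
Accessible regions of the 6 members by distance from the reference start site in kb, in the direction of transcription. Bars are regions drawn to scale with a thin outline, thick gray lines gene bodies, thin gray lines the 50 kb windows on either side, and triangles the 5 regions with a STAT palindrome. A start region sits at 0 for every member but Lif, and Jak1 shows an interval of 65.4 kb without a region inside its gene body.

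Lifr (ENSMUSG00000054263.12), the ligand-specific receptor subunit, spans 106.88 kb on the plus strand at chr15:7090614-7197489. A region of 1460 bp at chr15:7128686-7130145 covered the start of the reference transcript Lifr-201 and 2 other starts within the same promoter, and 3 of 7 annotated starts were covered in all. The outermost start, that of Lifr-208, lay 26 bp outside a region of 443 bp, and the internal starts used by Lifr-204, Lifr-206 and Lifr-207 lay 743 bp and 750 bp from the nearest region. Of the 31 regions, 27 were more than 1 kb from any TSS (distal) and 17 overlapped the gene body. Intron 1 of the reference transcript held 7 of these, more than any other intron or exon of the 6 reference transcripts. All 27 distal regions were intronic or intergenic at their center, 17 and 10 of them respectively.

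The widest region of all 136, 2096 bp at chr15:7115201-7117296, lay within an intron of the long transcript of Lifr, centered 13.3 kb upstream of the reference start. It held the STAT palindrome printed first above, 2 further elements of the looser form TTCNNNGAA, and 2 matches to the octamer ATGCAAAT, the element bound by OCT4, on opposite strands with 30 bp between them. The first octamer lay 336 bp from the palindrome. The GC content of this region, 41.9%, was below the median of distal regions in the whole list, 48.3%, and its CpG ratio was 0.186.

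Il6st (ENSMUSG00000021756.12), which encodes the shared subunit gp130, lies on the plus strand at chr13:112464070-112510086. A region of 1028 bp at chr13:112463590-112464617 covered 4 starts at its 5′ end, including that of the reference transcript Il6st-203, and had the highest GC content of the members' start regions, 68.7%. A second region of 342 bp at chr13:112472495-112472836 covered the start of Il6st-209. The starts at 112475008 and 112475046 lay 394 bp and 432 bp from a region of 153 bp and that of Il6st-205 lay 2976 bp from the nearest region, so that 5 of 8 starts were covered. Distal regions numbered 14 of 19. The nearest upstream one was centered only 1.47 kb from the reference start, 789 bp wide, and held an octamer 27 bp from its center. The widest, of 2060 bp at chr13:112439006-112441065, was intergenic and centered 24.0 kb upstream. The downstream flank reached Il31ra, another receptor gene of the gp130 family, which was the nearest protein-coding gene of 5 regions.

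Jak1 (ENSMUSG00000028530.14), the receptor-associated kinase, spans 112.92 kb on the minus strand at chr4:101152367-101265282. A region of 1096 bp at chr4:101264390-101265485 covered 5 clustered starts, among them that of the reference transcript Jak1-201, and a region of 298 bp at the opposite end of the gene covered that of Jak1-207, a non-coding transcript. Jak1 had the fewest regions of the members, 14 in a window of 212.9 kb. Its gene body was covered over 2.2% of its length, compared with 5.82% in Il6st, 6.12% in Stat3, 8.62% in Lifr, 21.3% in Lif and 32.6% in Socs3. Between the start region and the next one there were 65.4 kb without a region, all within intron 1 of the reference transcript. The widest region, of 1693 bp at chr4:101292000-101293692, was distal, centered 27.6 kb upstream in an intron of the non-coding gene Gm12796, with GC content of 59.1% and a CpG ratio of 0.66. Among protein-coding genes, all 14 regions were nearest to a start of Jak1, including 3 centered in introns of Raver2, the neighbor whose start lies beyond the window. With non-coding genes counted too, 5 of the 14 were nearer to a start of another gene.

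Stat3 (ENSMUSG00000004040.16), the transcription factor, lies on the minus strand at chr11:100885098-100939540. A region of 1038 bp at chr11:100939128-100940165 covered all 4 coding starts, including that of the reference transcript Stat3-203. Within the gene body 3 further regions, of 289, 602 and 853 bp, lay over starts of transcripts annotated as retained introns, and 8 of 14 starts were covered in all. The first intron held a single region, of 602 bp, centered 11.9 kb downstream of the start. The window of Stat3 had the lowest share of distal regions, 14 of 22, and the most protein-coding neighbors with Lif, 3 each. That low share rests in part on the retained-intron starts. The 3 regions over them counted as proximal, as did a region of 152 bp centered 967 bp from another. Stat5b and Stat5a, genes of the same factor family, and Cavin1 were together nearest to 12 of the 22 regions, and the widest region, of 1913 bp at chr11:100969170-100971082, covered the start of Cavin1. The palindrome of this window lay in a region of 372 bp at chr11:100957350-100957721, 17.9 kb upstream of Stat3 and in an exon of Cavin1. A match to the core of the CTCF element lay 32 bp from it.

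Socs3 (ENSMUSG00000053113.3), the feedback inhibitor, is the shortest member with 3.97 kb on the minus strand at chr11:117966079-117970047. A single region of 1385 bp at chr11:117968755-117970139 covered all 3 starts and 32.6% of the gene, and was the widest of its window. The palindrome in this region was centered 57 bp upstream of the reference start, that of the coding transcript Socs3-201. RefSeq places the start farther upstream, at 117969366, so that the same element falls in its first exon. The second palindrome lay 6.56 kb downstream of the start and 7 bp from the center of an intergenic region of 408 bp at chr11:117962431-117962838, and the third 45.9 kb downstream in an intergenic region of 380 bp at chr11:117923220-117923599. Of the 25 regions, 22 were distal, and apart from the region over the gene body 12 lay upstream and 12 downstream. The looser form TTCNNNGAA, of which every palindrome is one instance, was in 11 of the 25 regions at full width, compared with 6 of 31 around Lifr, 3 of 22 around Stat3, 2 of 19 around Il6st, 2 of 25 around Lif and 1 of 14 around Jak1. At that width it was in 18.4% of all member regions and in 14.5% of the list. Pgs1, the upstream neighbor, was the nearest protein-coding gene of 9 regions.

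Across the 6 members, every gene had a region over at least 1 of its starts, as did 68.9% of 21938 protein-coding genes. Over single starts, 27 of 43 were covered (62.8%, 95% Wilson interval 47.9 to 75.6) compared with 52.7% of 93459 starts of protein-coding genes. The 27 covered starts lay in only 11 regions. Starts that share a region are not independent, and the interval does not allow for this. Taking the widest region over a start of each member, these were between 955 and 1460 bp wide, with GC content of 60.0% to 68.7% and CpG ratios of 0.649 to 0.93. Promoter-proximal regions of the whole list, those centered within 1 kb of a TSS, had a median width of 757 bp, a median GC content of 56.1% and a median CpG ratio of 0.518. Since the widest region was taken for each member, the width, GC content and CpG ratio of these regions are no comparison with those medians. The 5 other regions over a start of Il6st, Jak1 or Stat3 were 289 to 853 bp wide, with GC content of 45.9% to 54.5% and CpG ratios of 0.293 to 0.583. The starts covered in other genes of the windows (6 regions) were those of Castor1, Stat5a, Stat5b, Cavin1, Pgs1 and the non-coding Gm11956.

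Distal regions made up 109 of the 136 regions (80.1%, 95% Wilson interval 72.7 to 86), and 82.7% of the whole list, which lies inside this interval. Such intervals cover counting over regions, and regions are no replicates of a group. The distal member regions had a median width of 386 bp, with 344 bp in the whole list, a median GC content of 51.8%, with 48.3%, and a median CpG ratio of 0.249, with 0.217. Repeats took up less of them, since the median soft-masked share was 6.54% compared with 13.7%, and 6 of 109 (5.5%) were masked over at least 50% of their length, compared with 19.5% of distal regions in the list. By annotation at their center, 47 of the 109 distal member regions were intronic, 49 intergenic and 13 exonic. The Stat3 window had 6 of the exonic ones, and those of Lifr and Socs3 had none. By gene and over all regions, the median width ranged from 287 bp around Jak1 to 505 bp around Lif, the median GC content from 47.1% around Il6st to 55.6% around Socs3, and the median CpG ratio from 0.21 around Jak1 to 0.356 around Lifr.

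**Figure D2:**
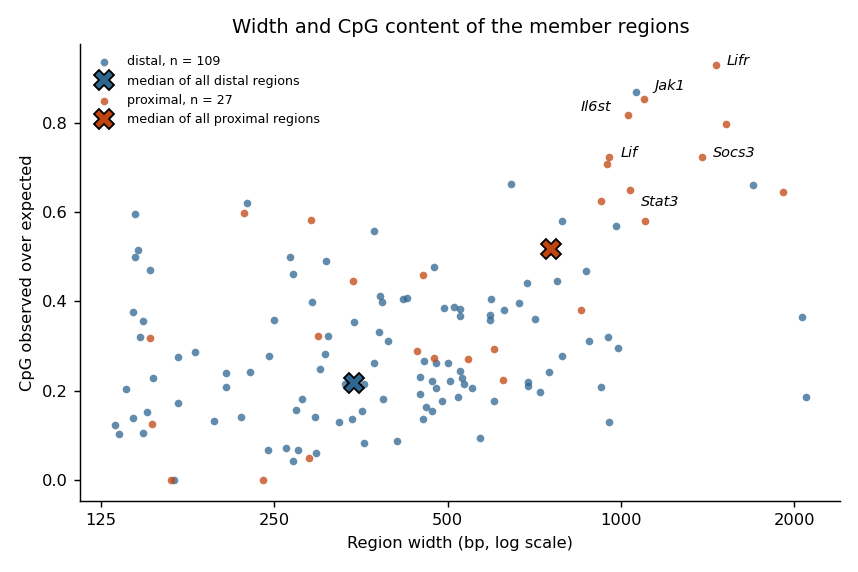
Width (bp, log scale) and CpG observed over expected of the 136 member regions, each point a region, colored by whether its center is within 1 kb of a TSS (proximal) or not (distal). Crosses are medians of all proximal and all distal regions of the list, and the named points, were chosen as the widest region over a start of each member and have CpG ratios of 0.649 to 0.93.

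The density of regions differed among the members, with the highest at 3.66 times the lowest. Per 100 kb of window there were 24 regions around Socs3, 21.7 around Lif, 15 around Lifr, 14.2 around Stat3, 13 around Il6st and 6.58 around Jak1. In the same measure, protein-coding genes had a median of 10.2 with quartiles of 5.7 and 15.1. Socs3 exceeded 98.7% and Lif 96.2% of these genes, whereas Jak1 exceeded 29.4%. The other 3 members lay between 64.9% and 74.7%. The members with the shortest gene bodies, Socs3 and Lif, had the highest densities, and their windows consist mostly of flanking sequence. There is no replicate of the list, so neighboring values in this order could not be tested. With flanks of 20 kb and of 100 kb Socs3 stayed the highest, Lif the second and Jak1 the lowest. The highest was 3.48 times the lowest with flanks of 20 kb and 2.15 times with 100 kb, where Jak1 exceeded 46.8% and Lif 81.8% of protein-coding genes.

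**Figure D3:**
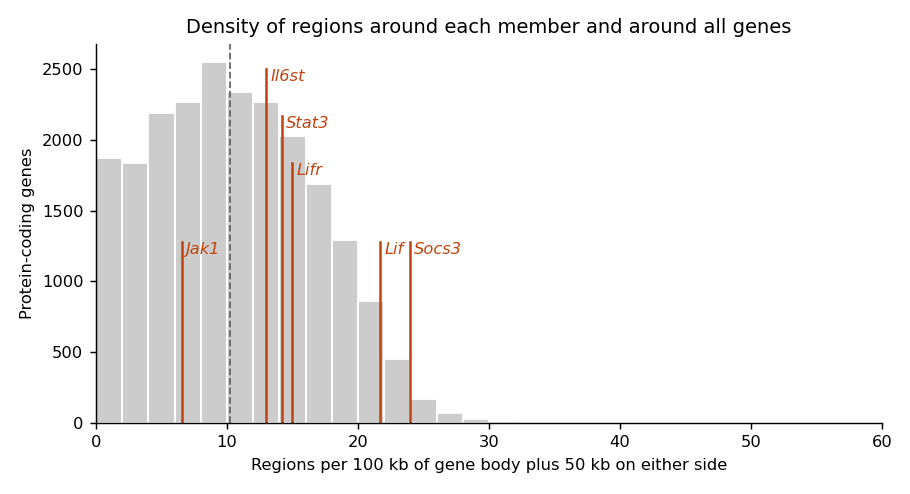
Histogram of regions per 100 kb of gene body plus 50 kb on either side for 21938 protein-coding genes, in bins of 2, with the median of 10.2 as a dashed line. Red lines mark the 6 members at heights chosen for legibility, from 6.58 for Jak1 to 24 for Socs3.

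Sequence elements were searched for in the 200 bp around the center of every region, on either strand and without mismatches except where stated. The STAT palindrome was in 2 of 136 member regions (1.47%, 95% Wilson interval 0.404 to 5.2) and in 0.88% of the list, and the looser TTCNNNGAA in 11 (8.09%, 4.58 to 13.9) and in 6.29% of the list. Both list values lie inside the members' intervals. The octamer ATGCAAAT was in 2 member regions and 2.01% of the list, and the SOX element CCATTGT in 5 (3.68%) and 4.45% of the list. The ESRRB element TCAAGGTCA was in 3 (2.21%) and 1.2% of the list. The KLF element GGGTGTGG was in 5 (3.68%) and 3.54% of the list, and the CTCF core in 3 (2.21%) and 2.34% of the list. No member region held the OCT4::SOX2 composite element with at most 2 mismatches, at any width searched. With this fixed-letter search it was rare in the list too, in 0.224% of regions within the central 200 bp and in 0.405% at full width. The interval for 0 of 136 reached 2.75%, so its absence does not tell whether it is rarer around these genes. The paper's motif search, by another method, found it at more loci than the 690 regions matched here at full width. Sites of this kind may therefore be missed here. For each of the 8 elements the share in the list was inside the members' interval.

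Over the full width of the regions, the ESRRB element was in 5 member regions (3.68%) and in 2.4% of the list. ESRRB is a nuclear receptor of naive ES cells, and the matches lay 3.72 kb upstream of the reference start of Socs3, 8.03 kb upstream of that of Stat3, 38.5 kb downstream of that of Lifr, and in 2 regions upstream of Lif whose nearest protein-coding genes were Tbc1d10a and Osm. Octamers were in 5 member regions (3.68%) and in 3.72% of the list. At least 2 octamers were held by 2 member regions (1.47%, 95% Wilson interval 0.404 to 5.2) and by 0.423% of the list, a count made after the pairs were seen. These were the wide Lifr region and, with 62 bp between them, a region of 343 bp downstream of Il6st.

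At full region width the palindrome was in 5 of 136 member regions (3.68%) and in 1.97% of the list. The 6 windows held 41 palindromes in all, of which the 5 inside regions make up 12.2%, while regions took up 7.52% of the bases of the windows. Over all chromosomes 3455 of 69398 palindromes (4.98%) were inside regions that took up 3.1% of the bases. At least 1 palindrome region was present in the windows of Lifr, Stat3 and Socs3, that is 3 of 6 members, and in those of 24.6% of protein-coding genes. The 3 palindrome regions of Socs3 were matched or exceeded in the windows of 0.83% of protein-coding genes, a limit chosen after that of Socs3 was seen. A window with more regions can hold more palindrome regions, and this share does not allow for that. The window of Socs3 had 25 regions, and the median protein-coding window 14. These are letter matches, and STAT3 binding was not measured here.

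**Figure D4:**
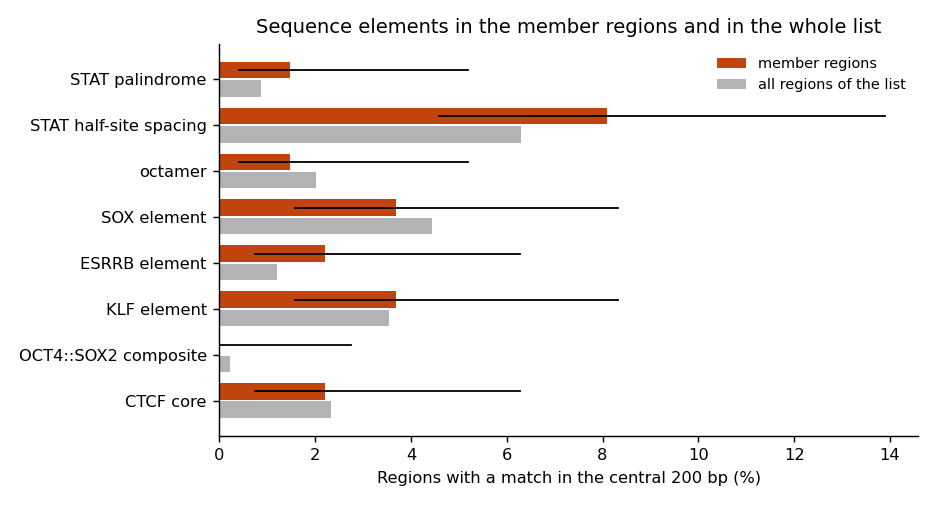
Share of regions with each element in the central 200 bp, in percent, for the 136 member regions (red, with 95% Wilson intervals) and all 170548 regions (gray). The gray bar ends inside the interval of the red bar for each element. No red bar is drawn for the OCT4::SOX2 composite, with 0 of 136 member regions and 0.224% of the list.

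Of the other genes of the pathway, a list of 47 in 6 roles, 43 (91.5%) had a region over a start, compared with 68.9% of protein-coding genes. The 4 without one were Osm, Il11, Cntf and Cntfr, which are cytokines and a receptor subunit of the family. All 9 kinases and adaptors, 6 other STAT factors, 12 inhibitors and 10 genes known as STAT3 targets in ES cells had a covered start. The median over the list was 15.6 regions per 100 kb, with 10.2 for protein-coding genes, and 35 of 47 lay above the latter. By role, the medians were 14.6 for cytokines, 16.7 for receptors, 15.7 for kinases and adaptors, 13.3 for STAT factors, 14.6 for inhibitors and 20.2 for STAT3 targets. The STAT3 targets, 9 of 10 of which lay above the protein-coding median, ranged from Klf4, with 10 regions in its window, to Bcl3, with 29. Most targets had short windows, from 103.2 kb for Gbx2 to 157.2 kb for Tfcp2l1, compared with 106.2 to 216.1 kb for kinases and adaptors. Cytokine windows were also short, 102.0 to 110.5 kb, with the median of 14.6. Whether gene length bears on the order of the roles was not tested. Among inhibitors, Socs4 had 8 regions and Pias2, a SUMO ligase of the PIAS family, 33. Among receptors, Il6ra, the IL-6 receptor, had 37 and Osmr, which pairs with gp130 for oncostatin M, 9. The adaptor Gab1 had the most regions on the list, 43, in a window of 216.1 kb. Osm, Stat5a and Stat5b are not independent of the members, since they share 20 regions with Lif, and 13 and 10 with Stat3.

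**Figure D5:**
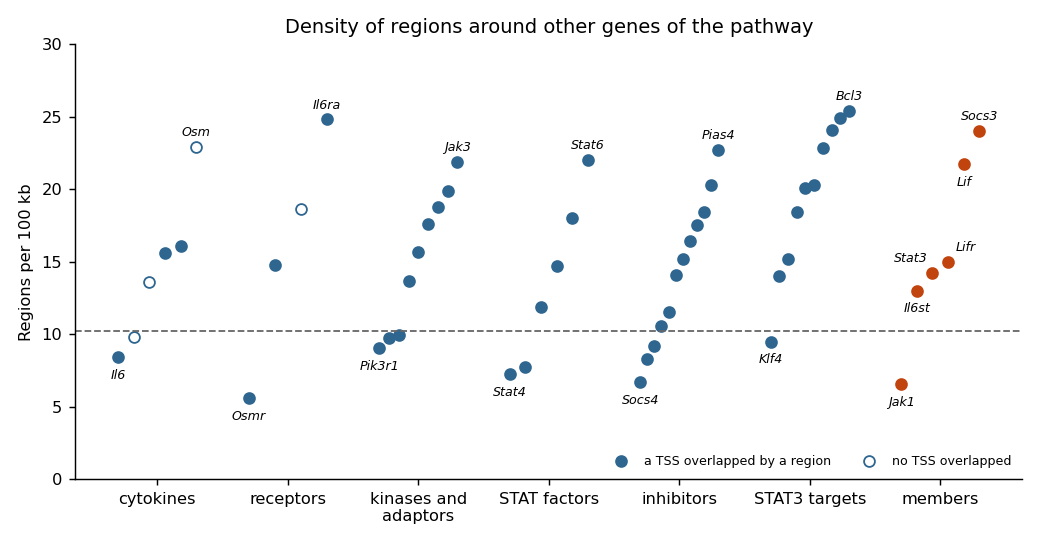
Regions per 100 kb for the 47 other pathway genes by role (blue) and the 6 members (red), each point a gene, with the genes of lowest and highest density named in each role. Open points have no region over a start, and the dashed line is the median of all protein-coding genes, 10.2. The STAT3 targets have the highest median of the roles, 20.2, and most of them have short windows.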

How the data were processed

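ATAC-seq was performed in duplicate. The authors aligned paired-end reads to mm10 with STAR 2.6.1c, removed duplicates with Picard, called peaks with MACS2 2.1.1.20160309 and merged them over the ATAC-seq experiments of both lines with BEDTools, per the paper's methods and the submitters' processing notes. For its own analysis the paper then left out very wide peaks, peaks also called in Input samples and blacklisted ones. The list used here still holds a region of 58315 bp, so it is not that filtered set. Whether peaks were called per replicate is not given in the sources used here. The deposited values are start and end positions in bp, with 0 columns of values per sample, so the depth of each library is unknown, nothing was tested between groups, and merging can widen a region or join neighbors. Some regions may come from 1 library.

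Regions were intersected with GENCODE M21 on GRCm38, the authors' build with a later annotation release than theirs, and counted from 1. The reference transcript was the principal CCDS transcript with the most exons, then the one starting farthest upstream. Regions centered more than 1 kb from every annotated TSS were distal. CpG observed over expected divides the CpG count by that expected from C and G. Elements were searched on both strands in RefSeq GRCm38 sequence. Named regions cover a start of a member, are the widest, the nearest or farthest distal ones of a member, or hold a STAT palindrome. Other regions named, and the centering of printed stretches on the palindrome, were picked once their values were known. The sequence before the Lif start was added in the same way. The members and lists were chosen with earlier results of these data known. Functions were tested on simulated data. Python 3.11.15, numpy 2.4.6, pandas 2.3.3, scipy 1.17.1 and matplotlib 3.10.9 were used.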

Additional observations from a re-analysis of the deposited data

How the results depend on the processing

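The number of member regions was 136, with 88 for flanks of 20 kb and 205 for flanks of 100 kb, which by construction hold less and more sequence. It stayed within 1.5 times when regions were placed by their center, when those under 200 bp were left out and when neighbors less than 100 bp apart were joined. The distal share of 80.1% became 87.5% with starts of protein-coding transcripts only and 89.7% with curated RefSeq starts, which are fewer starts, and stayed inside its interval with distance from the region edge, a limit of 2 kb or regions of at least 200 bp. The share of member starts covered, 62.8%, became 81.4% when a region within 1 kb was enough and 77.8% over curated RefSeq starts, where the first start of Lif and an internal start of Lifr were again not covered. The RefSeq starts were added after seeing the data. The share of regions nearest to the member, 69.9%, became 49.3% with starts of all genes, non-coding ones included, and 79.5% with flanks of 20 kb. The share with a STAT palindrome, 1.47%, became 8.09% with the looser form, which every palindrome also meets. The densities stayed within 1.5 times under both flanks for each of the 6 members. No paired analysis was possible because no library has values of its own, and for the same reason none could be left out. Without read numbers, the absence of a region, as at the reference start of Lif, cannot be told apart from a peak below the calling threshold.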
